A study of Mus musculus with 18 samples.

Results

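The acyl-CoA thioesterase genes Acot1, Acot2, Acot3, Acot4, Acot5, Acot7, Acot8, Acot12 and Acot13 were followed in mouse liver. The members were taken by gene name, and all 9 names were found among the 54532 annotated genes of both expression tables, each as a protein-coding gene. The RNA came from whole liver of male C57BL/6J wild-type mice fasted overnight, with diets begun at 1 month of age and 1 library per mouse. Mice received a control diet (Ctrl, n = 5) or a vitamin B2-deficient diet (B2D, n = 5) for 1 month. A second experiment used the control diet with fenofibrate (Ctrl+FF, n = 4) or the vitamin B2-deficient diet with fenofibrate (B2D+FF, n = 4), with 9 weeks of diet, fenofibrate in weeks 7 to 9 and a last dose 2 hours before harvest. Fenofibrate is a fibrate drug whose active acid is an agonist of the nuclear receptor PPARα. Fenofibrate given by daily gavage, the time on diet, the age at harvest and the separately normalized table changed together between the experiments. Their parts in a difference between the tables therefore cannot be told apart.

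Acyl-CoA thioesterases hydrolyse a fatty acyl-CoA to the free fatty acid and coenzyme A. They release coenzyme A where acyl-CoA accumulates and set how much acyl-CoA is left for oxidation or lipid synthesis in each compartment of the cell. Synthetases run the opposite reaction. In rodent liver, several members are textbook PPARα targets that rise in fasting and with fibrates. The members were grouped by the compartment that general knowledge assigns to the protein. Acot1 (long-chain acyl-CoA), Acot7 (an enzyme best known from brain) and Acot12 (acetyl-CoA) were taken as cytosolic, and Acot2 (long-chain acyl-CoA) as mitochondrial. Acot13, also called Them2, was kept apart as mitochondria-associated and cytosolic. Acot3 (long-chain), Acot4 (succinyl-CoA and dicarboxylyl-CoA), Acot5 (medium-chain) and Acot8 (broad substrates, bile acid-CoA among them) were taken as peroxisomal.

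Peroxisomal matrix proteins usually carry their targeting signal in the last codons of the coding sequence, so the ends of the coding sequences show the feature behind the grouping. Each line gives the last 30 bases of the coding sequence, read from the GENCODE transcripts of GRCm38 in the sense direction, with the last 3 sense codons in capitals before the stop codon.

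Acot3: aaaaagaagacaatcccaGCAAAACTGtga

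Acot4: acccacagcagagcctccTGTAGACTGtag

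Acot5: gacaagaggccaagcccaGCAAAACTAtga

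Acot8: aagcctcaggtgtcagagAGTAAGCTAtag

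Acot1: gagtgtttgcatgtgtctCCTAAAATAtaa

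Acot2: ttccacaaacagttgggtAGCAAGAGTtag

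Acot12: actcctgatggacttaaaAGTGTGTTAtaa

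The 4 peroxisomal members all ended in CTG or CTA before the stop codon. Cytosolic Acot12 ended in TTA, a codon for the same amino acid, so the last codon alone does not set the peroxisomal members apart. Acot7 and Acot13 ended in CCC and AAC. The cytosolic Acot1 and the mitochondrial Acot2 ended in other codons, although their coding sequences were 95.5% identical over 1239 aligned bases. The other pairs within the cluster described next were 75.2% to 85.8% identical.

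Acot2 (83987861–83993873), Acot1 (84009490–84018371), Acot4 (84038379–84048601), Acot3 (84052144–84060402) and Acot5 (84069325–84076020) lay side by side on the plus strand of chromosome 12 in GRCm38. Acot6, a paralogue that was not a member, followed at 84100654–84111349. Acot12 (91741512–91786148, plus strand) and Acot13 (24817948–24831540, minus strand) lay on chromosome 13, Acot7 (152178134–152271855, plus strand) on chromosome 4 and Acot8 (164792765–164804882, minus strand) on chromosome 2. Close copies can share reads. Of all 150-base windows of the main transcript, 12.4% in Acot1 and 10.2% in Acot2 were also present in another member, against 3.36% in Acot5 and 2.74% in Acot3. No window of Acot4, Acot7, Acot8, Acot12 or Acot13 was shared with another member. Windows were not compared with Acot6 or with other genes. The antisense gene 4732463B04Rik (84039469–84053807, minus strand) overlaps Acot4 and Acot3, and the library kit did not mark strand, so reads from the overlapping stretches cannot be assigned to either strand.

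Libraries held 15320729 to 21898502 reads on genes, and libraries of the same group correlated at 0.979 to 0.994 on log2(FPKM + 1). Levels are given in FPKM, read fragments scaled to gene length and library size. The 5 hepatocyte markers (Alb, Apoa1, Ttr, Cps1, Tat) summed to 31742–41076 FPKM in Ctrl, 31998–46076 in B2D, 20846–24098 in Ctrl+FF and 18588–21358 in B2D+FF. These sums overlapped between the diets of each experiment, and lay lower in every mouse with fenofibrate than in every mouse without. Taken singly, Alb and Ttr did so as well, while Apoa1, Cps1 and Tat overlapped between mice with and without fenofibrate. Sums were 22.0–61.3 FPKM over 5 Kupffer cell and macrophage markers, 13.1–30.5 over 4 endothelial markers and 14.2–41.0 over 4 stellate and fibroblast markers across all mice. The 4 cholangiocyte and 3 lymphocyte markers reached at most 2.86 and 1.30 FPKM. The 3 adipocyte markers summed to at most 7.46 FPKM, with Lep at 0 in Ctrl, and the 3 pancreatic acinar markers to at most 0.234 FPKM, all at 0 in Ctrl. Of the 5 Kupffer cell and macrophage markers, 1 passed the adjusted threshold in B2D against Ctrl (Clec4f, lower, limma adjusted p = 0.0412), beside 2.70% of all genes tested. In that contrast 4 of the 5 were lower and 1, Marco, was higher (log2 fold change 0.95, limma adjusted p = 0.199). Of the 5 hepatocyte markers, 1 passed in B2D+FF against Ctrl+FF (Tat, higher, log2 fold change 1.35, limma adjusted p = 0.0188), beside 4.45% of all genes tested. There 3 of the 5 were higher and 2 lower. The lower 2 were Alb (-0.35, limma adjusted p = 0.114) and Ttr (-0.34, limma adjusted p = 0.104). In bulk liver, fewer cells of a type and less RNA per cell cannot be told apart, and the part of cell composition in the results was not tested.

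The family covered a wide range of levels in control liver. Mean FPKM in Ctrl was 105 ± 14.2 (SD, n = 5) for Acot1, 80.7 ± 7.34 for Acot12 and 62.9 ± 11.9 for Acot13. Neighbours in this order overlapped in range, yet all 5 mice had Acot1 above Acot12 and Acot12 above Acot13. A middle tier held Acot4 (27.5 ± 4.28 FPKM), Acot3 (24.1 ± 5.39) and Acot2 (23.2 ± 5.21), whose ranges overlapped, with each above the next in 4 of 5 mice. Acot8 averaged 15.4 ± 1.83 FPKM and Acot7 8.37 ± 1.77. Acot5 was near the detection limit, with 0 to 2 reads per Ctrl library. FPKM divides reads by the table's gene length, which for Acot1 was 3919 bases against 2272 bases in its main coding transcript, so its level relative to other members depends on that choice. The same holds for Acot8 (1997 against 1152 bases) and Acot7 (2124 against 1505 bases).

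**Figure D1:**
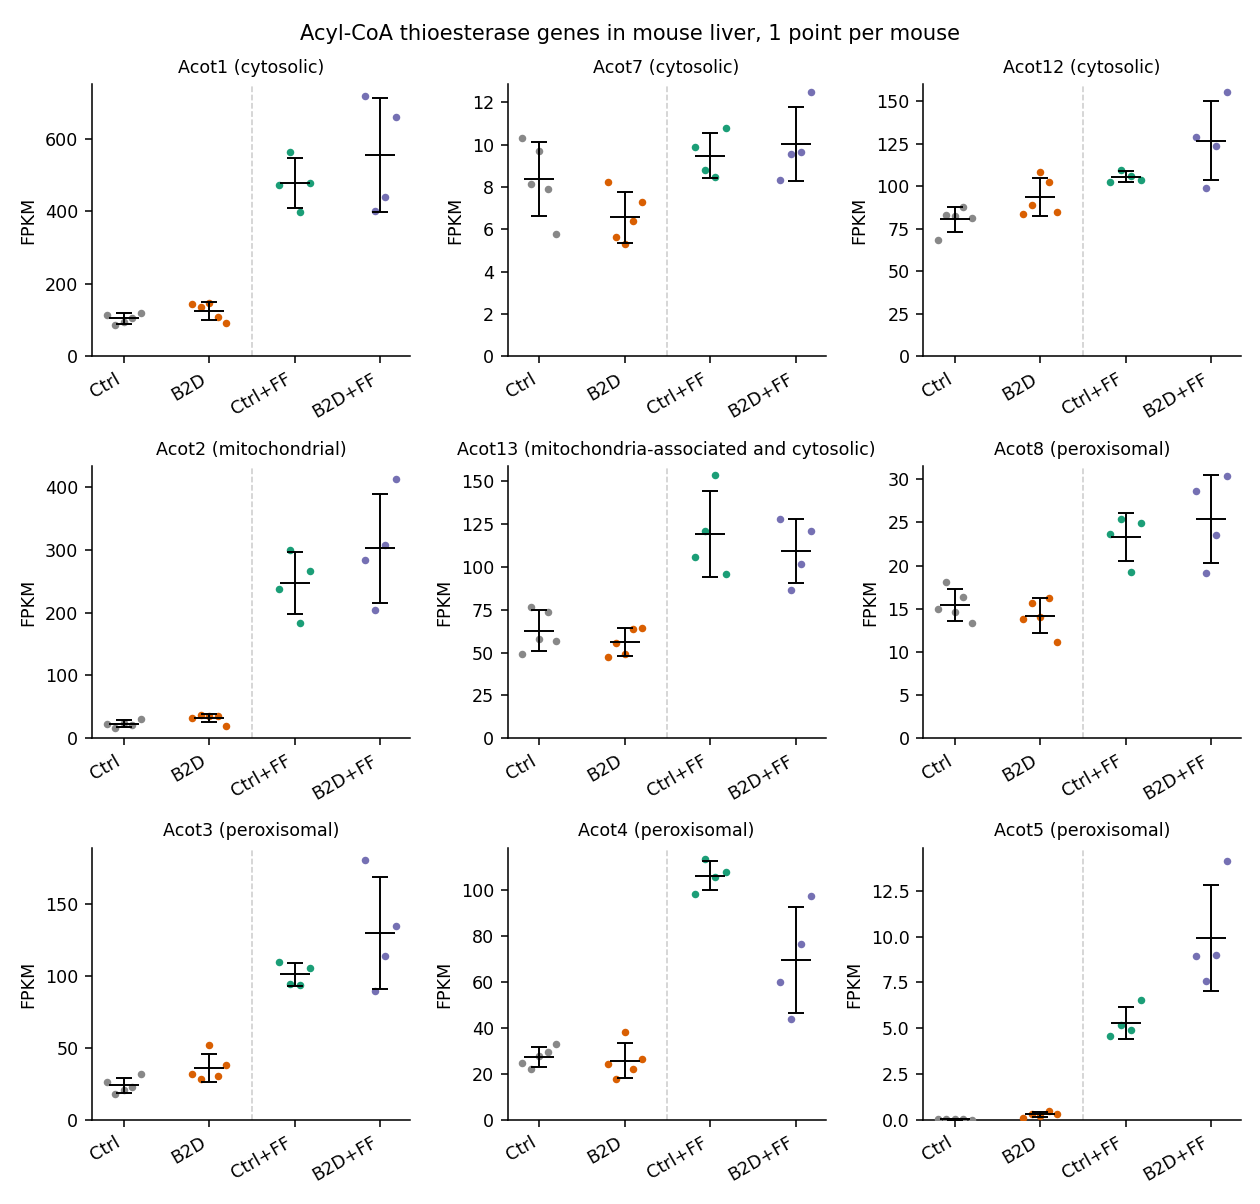
FPKM of each thioesterase gene (vertical axis, from 0, one scale per gene) in the 4 groups, with 1 point per mouse and the mean ± SD in black. The dashed line parts the 2 separately normalized tables. Acot1, Acot2, Acot3, Acot4, Acot5, Acot8 and Acot13 sit higher in every mouse with fenofibrate than in every mouse without it, and Acot4 in B2D+FF sits below Ctrl+FF.

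With B2D alone, no member of the family passed the test across all genes. On log2(FPKM + 1) with limma and Benjamini-Hochberg adjustment, 0 of the 8 members that passed the filter on low values (a mean of at least 0.5 FPKM) had an adjusted p under 0.05, against 2.70% of the 11574 genes tested. Before adjustment, 2 of 8 members (Acot3 and Acot2) had a p under 0.05, against 18.4% of all genes. Of these 8 members, 4 were higher and 4 lower in B2D, and their median log2 fold change was 0.047, beside -0.0013 over all genes tested.

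Acot3, the peroxisomal long-chain enzyme, had the largest fitted difference of the family in this contrast. Its FPKM was 26.7, 18.04, 20.96, 22.8 and 31.9 in Ctrl mice 1 to 5, and 32.1, 28.3, 51.8, 30.4 and 38.3 in B2D mice 1 to 5. The groups overlapped through the highest Ctrl mouse. The log2 fold change was 0.56 (SE 0.183, 95% interval 0.16 to 0.96, limma adjusted p = 0.136).

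For Acot2, the mitochondrial long-chain enzyme, Ctrl mice had 23.1, 15.98, 25.0, 21.5 and 30.3 FPKM, and B2D mice 32.99, 37.0, 35.9, 35.6 and 19.9. Mouse 5 of B2D lay within the Ctrl range and the other 4 lay above it. The log2 fold change was 0.46 (SE 0.193, 95% interval 0.036 to 0.88, limma adjusted p = 0.232). Its close copy Acot1, in the cytosol, had 115, 87.1, 93.8, 107 and 121 FPKM in Ctrl mice and 146, 137, 148, 108 and 92.1 in B2D mice. These groups overlapped more, at a log2 fold change of 0.25 (SE 0.153, limma adjusted p = 0.404).

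Acot4 lies between Acot1 and Acot3, and no test compared it with them. Its FPKM was 24.7, 22.3, 27.7, 29.7 and 33.3 in Ctrl and 24.4, 18.004, 38.4, 22.0 and 26.5 in B2D. The B2D mice spread on both sides of the Ctrl range, with a log2 fold change of -0.12 (95% interval -0.51 to 0.27, limma adjusted p = 0.765).

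No member outside the cluster was called either. Acot12, the cytosolic acetyl-CoA hydrolase, ranged over 68.4–88.0 FPKM in Ctrl and 83.5–108 in B2D, at a log2 fold change of 0.21 (95% interval -0.033 to 0.45, limma adjusted p = 0.338). Acot7 ranged over 5.79–10.3 FPKM in Ctrl mice and 5.28–8.21 in B2D mice, at -0.30 (-0.63 to 0.028, limma adjusted p = 0.313). Acot8 and Acot13 had log2 fold changes of -0.12 (-0.38 to 0.14) and -0.15 (-0.47 to 0.17), with overlapping ranges and limma adjusted p of 0.625 and 0.605. The intervals of Acot1 (-0.083 to 0.58), Acot4, Acot7, Acot8, Acot12 and Acot13 spanned 0 and leave changes in either direction possible.

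Acot5 did not pass the filter on low values in this experiment and is given on its own. Its FPKM was 0.0370, 0.0757, 0.0334, 0.0332 and 0 in Ctrl and 0.107, 0.309, 0.225, 0.509 and 0.346 in B2D. Every B2D mouse lay above every Ctrl mouse (two-sided exact permutation test over mice, p = 0.00794, the smallest that 5 against 5 allows), as did 2.08% of the genes that passed the filter. The difference rested on 5 reads in all Ctrl libraries against 42 in all B2D libraries, a ratio of 8.79 with a 95% interval of 3.48 to 28.5 that covers counting error only. The permutation p carries no adjustment across genes. With no filter on low values, limma placed Acot5 0.32 higher in B2D than in Ctrl on the log2(FPKM + 1) scale. Adjusted across all genes of that limma fit, its p was 0.106, so Acot5 was not called there.

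With fenofibrate on both diets, 1 of the 9 members passed the adjusted threshold in B2D+FF against Ctrl+FF, beside 4.45% of the 11878 genes tested. It was Acot5. Before adjustment, 2 of 9 members had a p under 0.05, beside 21.2% of all genes. The median log2 fold change was 0.18 over the members and 0.013 over all genes tested, with 7 members higher and 2 lower in B2D+FF. A single call among 9 members is no result about the family as a whole.

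Acot5, the peroxisomal medium-chain enzyme, had 4.57, 5.16, 4.89 and 6.56 FPKM in Ctrl+FF mice 1 to 4, and 8.93, 7.57, 9.00 and 14.1 in B2D+FF mice 1 to 4. Every B2D+FF mouse lay above every Ctrl+FF mouse, as in 7.82% of the genes tested, on 114 to 440 reads per library. Acot5 rose 1.87-fold between the group means, with a log2 fold change of 0.77 (SE 0.173, 95% interval 0.38 to 1.16, limma adjusted p = 0.0403). The call did not hold when single mice were left out: adjusted p was 0.117, 0.106 and 0.0982 without Ctrl+FF mouse 1, 2 or 3, and 0.0723 and 0.0561 without B2D+FF mouse 1 or 3. Without a filter on low values it was 0.103, and over all 15 alternatives it ranged from 0.0240 to 0.876, the highest with Acot3, Acot4, Acot5 and Acot6 summed as 1 feature. That sum is mostly Acot3 and Acot4, so its adjusted p is not a value of Acot5 alone.

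Acot4 lay on the opposite side. The Ctrl+FF mice had 98.3, 114, 106 and 108 FPKM, and the B2D+FF mice 60.2, 43.9, 76.8 and 97.6. The groups did not overlap, but the highest B2D+FF mouse nearly reached the lowest Ctrl+FF mouse. The B2D+FF mean was 0.654 of the Ctrl+FF mean, with a log2 fold change of -0.66 (SE 0.210, 95% interval -1.14 to -0.19, limma adjusted p = 0.109). Without B2D+FF mouse 4 the log2 fold change was -0.84 and the adjusted p was 0.0489. Over the 8 fits that lacked a single mouse, the adjusted p of Acot4 lay between 0.0489 and 0.241. The highest over all 15 alternatives, 0.876, came from Acot3, Acot4, Acot5 and Acot6 summed as 1 feature (log2 fold change -0.061). Acot3 alone was at 0.31, so that adjusted p is not a value of Acot4 alone. Groups that did not overlap, with B2D+FF lower, were found for 6.44% of the genes tested.

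Acot3, which directly follows Acot4 on the chromosome, had 110.2, 94.6, 94.2 and 106 FPKM in the Ctrl+FF mice and 181, 89.6, 114 and 135 in the B2D+FF mice. All B2D+FF mice except mouse 2 lay above the Ctrl+FF range, and the log2 fold change was 0.31 (95% interval -0.11 to 0.74, limma adjusted p = 0.381). The Ctrl+FF mice had 473, 563, 396 and 477 FPKM of Acot1, and the B2D+FF mice 717, 402, 439 and 658. For Acot2 the values were 237, 300.1, 184 and 267 FPKM in the Ctrl+FF mice and 284, 205, 308 and 414 in the B2D+FF mice. Both genes spread more widely in B2D+FF, and the groups overlapped. B2D+FF mouse 2 was the lowest of its group for every member except Acot7. Their log2 fold changes were 0.18 (-0.28 to 0.64, limma adjusted p = 0.655) for Acot1 and 0.27 (-0.23 to 0.76, limma adjusted p = 0.523) for Acot2.

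Acot12 ranged over 103–109.7 FPKM in Ctrl+FF mice and 98.8–155 in B2D+FF mice, with a log2 fold change of 0.24 (-0.050 to 0.54, limma adjusted p = 0.323). Acot7, Acot8 and Acot13 had log2 fold changes of 0.064, 0.11 and -0.12, with ranges that overlapped and limma adjusted p of 0.811, 0.727 and 0.743. Members outside the cluster thus showed no called difference between the diets, given the spread between mice in either experiment.

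**Figure D2:**
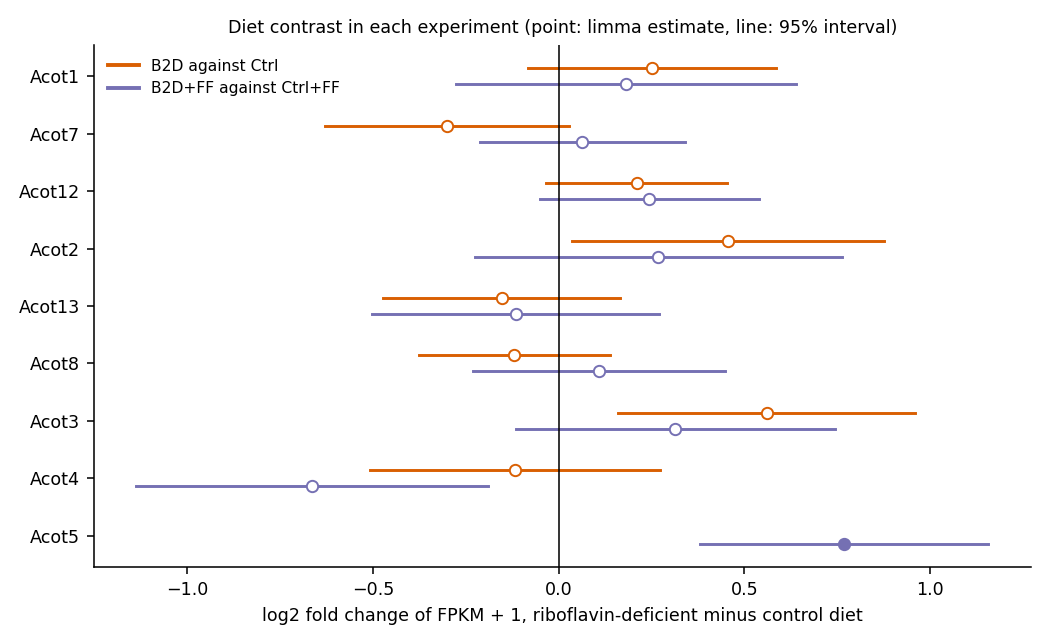
Log2 fold change of FPKM + 1 for the deficient minus the control diet (horizontal axis) for each member, without fenofibrate (orange) and with fenofibrate (violet). Points are limma estimates, lines 95% intervals, and a filled point marks an adjusted p under 0.05. Acot5 with fenofibrate, at 0.77, is the filled point, Acot4 with fenofibrate lies at -0.66, and Acot5 without fenofibrate is not drawn because it did not pass the filter.

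A contrast over all 18 libraries asked whether diet acted differently in the experiments. None of the 8 members that passed the filter in both tables was called, beside 0.145% of the 11031 genes tested (16 genes), and none had an unadjusted p under 0.05, beside 11.9% of all genes. The estimate farthest from 0 was that of Acot4, at -0.55 (95% interval -1.15 to 0.061, limma adjusted p = 0.453). Acot7 followed with 0.36 (-0.074 to 0.80, adjusted p = 0.497). A difference in the Acot4 response between the experiments was therefore not shown.

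For the members of the chromosome 12 cluster, levels differed more between the tables than between the diets. No test was run across the tables, and values are set side by side; the hepatocyte marker sums given above were lower beside fenofibrate, and their part was not tested. Acot2 averaged 23.2 ± 5.21 FPKM in Ctrl and 247 ± 49.2 in Ctrl+FF, a ratio of 10.7, and 32.3 ± 7.09 in B2D and 303 ± 86.3 in B2D+FF, a ratio of 9.38. Acot1, its close copy, averaged 105 in Ctrl, 477 ± 68.1 in Ctrl+FF, 126 ± 24.8 in B2D and 554 ± 157 in B2D+FF, with ratios of 4.55 and 4.40. Every mouse with fenofibrate lay above every mouse without it for both genes.

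The peroxisomal members of the cluster were also higher beside fenofibrate. Acot3 averaged 24.1 FPKM in Ctrl and 101 ± 8.10 in Ctrl+FF (ratio 4.202), and 36.2 ± 9.52 in B2D and 130 ± 38.8 in B2D+FF (ratio 3.59). Acot4 was at 27.5 in Ctrl, 106 ± 6.39 in Ctrl+FF (ratio 3.87), 25.9 ± 7.69 in B2D and 69.6 ± 23.0 in B2D+FF (ratio 2.69). Acot5 was the most extreme: 5 reads in all Ctrl libraries stood beside 541 in all Ctrl+FF libraries (ratio of rates 154, 95% counting interval 65.6 to 476), and 42 in B2D beside 1188 in B2D+FF (32.9, 24.2 to 45.9). Even so, Acot5 with fenofibrate had the lowest mean of the family, with 5.30 ± 0.879 FPKM on the control diet and 9.91 ± 2.89 on the deficient diet.

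Members outside the cluster showed smaller ratios. Acot13 was at 48.9–76.7 FPKM in Ctrl beside 96.0–154 in Ctrl+FF, a ratio of 1.89, and at 47.2–64.6 in B2D beside 86.5–128 in B2D+FF, a ratio of 1.95. Acot8, the peroxisomal member with its own locus, was at 13.3–18.1 beside 19.3–25.3 FPKM (ratio 1.51) and at 11.1–16.3 beside 19.2–30.4 FPKM (ratio 1.79). Acot12 had ratios of 1.31 on the control diet and 1.35 on the deficient diet, with overlapping mice in the latter. Acot7 had ratios of 1.13 and 1.52, with overlapping mice on the control diet. Among the 8 members that passed the filter in both tables, every mouse was higher with fenofibrate for 7 on the control diet and for 7 on the deficient diet, beside 13.2% and 13.6% of the 11031 genes. On the log2(FPKM + 1) scale the ratio was at least 1 for Acot1, Acot2, Acot3 and Acot4 on each diet, beside 3.81% and 4.50% of all genes.

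Genes flanking the cluster had ratios nearer to 1. Within 200 kb of the cluster, the expressed neighbours Numb, Riox1, Elmsan1 and Ptgr2 had ratios from 0.716 to 1.55 over both diets. The antisense gene 4732463B04Rik, which overlaps Acot4 and Acot3, had ratios of 2.32 and 1.99. Acot6, at the end of the cluster, averaged 0.156 ± 0.0874 FPKM in Ctrl, 1.64 ± 0.157 in Ctrl+FF, 0.438 ± 0.132 in B2D and 1.24 ± 0.121 in B2D+FF, with ratios of 10.5 and 2.82.

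**Figure D3:**
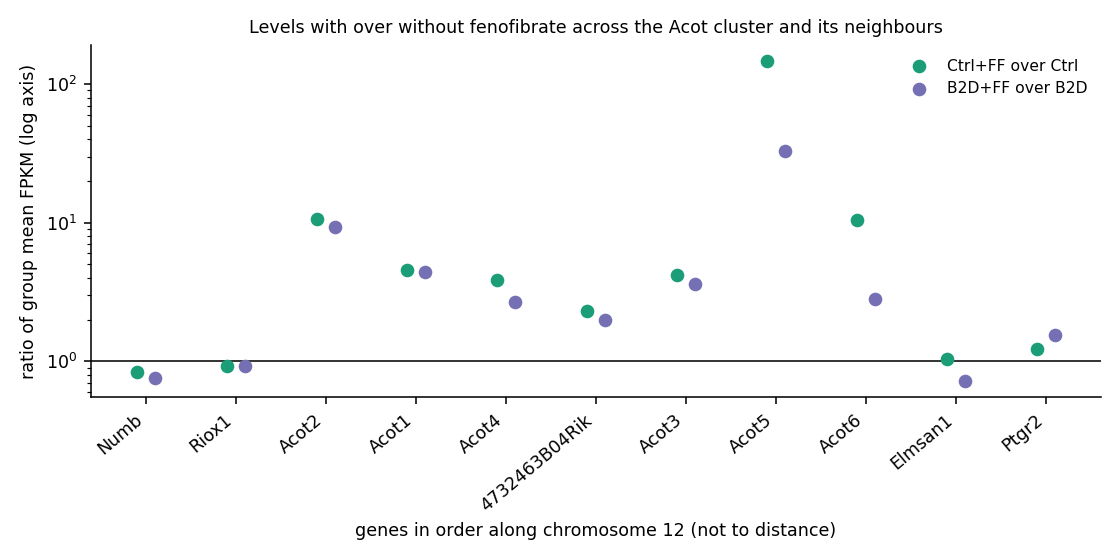
Ratio of group mean FPKM with over without fenofibrate (vertical log axis) on the control diet (green) and the deficient diet (violet), for genes in chromosomal order around the cluster. The horizontal line marks a ratio of 1. The Acot genes and the antisense gene lie above it on both diets, while the 4 flanking genes lie between 0.716 and 1.55, and the Acot5 ratio on the control diet rests on 5 reads without fenofibrate.

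PPARα binds direct repeats of the hexamer AGGTCA spaced by 1 base, called DR1 elements, and a search of the 250 bases upstream of each RefSeq start (GRCm38.p6) asked which members hold AGGTCA, 1 free base and AGGTCA again, or letters close to them, on either strand. Promoter windows were found for Acot1, Acot2, Acot3, Acot4, Acot5, Acot7, Acot8 and Acot12. The closest matches are shown in the direction of the gene, with the 13 matching bases in capitals.

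Acot12: taggacccTGACCTCTCACCTcctaagca

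Acot4: ccgaagcaTGACCTTTGGCCG

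The Acot12 match, in the window chr13:91741271-91741520 on the plus strand, had 1 mismatch and began 110 bases before the start, and 0.484% of 32851 promoter windows held a match at least as close. The Acot4 match, in chr12:84038129-84038378 on the plus strand, had 2 mismatches and ended directly before the start, with 3.24% of windows at least as close. The best matches of Acot2 and Acot5 had 3 mismatches, which 21.3% of windows reached, and those of Acot1, Acot3, Acot7 and Acot8 had 4 or 5. The order of the matches was not the order of the fenofibrate ratios: Acot12 was among the members with the smallest ratios and Acot2 among those with the largest. A match in letters is not a binding site, and sites outside these windows were not searched.

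By compartment, the mitochondrial part of the family differed most between the tables. The 9 members summed to 347 ± 21.6 FPKM in Ctrl, 391 ± 38.0 in B2D, 1195 ± 111 in Ctrl+FF and 1338 ± 312 in B2D+FF. Acot2 made up 6.66% ± 1.31 of this sum in Ctrl, 8.20% ± 1.51 in B2D, 20.5% ± 2.43 in Ctrl+FF and 22.6% ± 3.45 in B2D+FF. Its share was higher in every mouse with fenofibrate than in every mouse without.

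The cytosolic members (Acot1, Acot7, Acot12) were the largest part in all groups, with 55.9% ± 1.55 in Ctrl, 57.8% ± 3.05 in B2D, 49.5% ± 1.39 in Ctrl+FF and 51.6% ± 3.40 in B2D+FF. Within this part Acot1 was 1.31 times Acot12 in Ctrl and 1.36 times in B2D, beside 4.52 times in Ctrl+FF and 4.35 times in B2D+FF. Acot13 made up 18.2% ± 3.58, 14.5% ± 3.18, 10.1% ± 2.85 and 8.28% ± 0.673 in the same order of groups. The peroxisomal members held 19.3% ± 1.24, 19.5% ± 2.99, 19.9% ± 1.396 and 17.5% ± 0.897. The 5 cluster members together held 51.7% ± 5.95 of the sum in Ctrl, 56.1% ± 4.81 in B2D, 78.3% ± 3.41 in Ctrl+FF and 79.4% ± 1.55 in B2D+FF. These shares are sums over chosen members and were not tested.

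**Figure D4:**
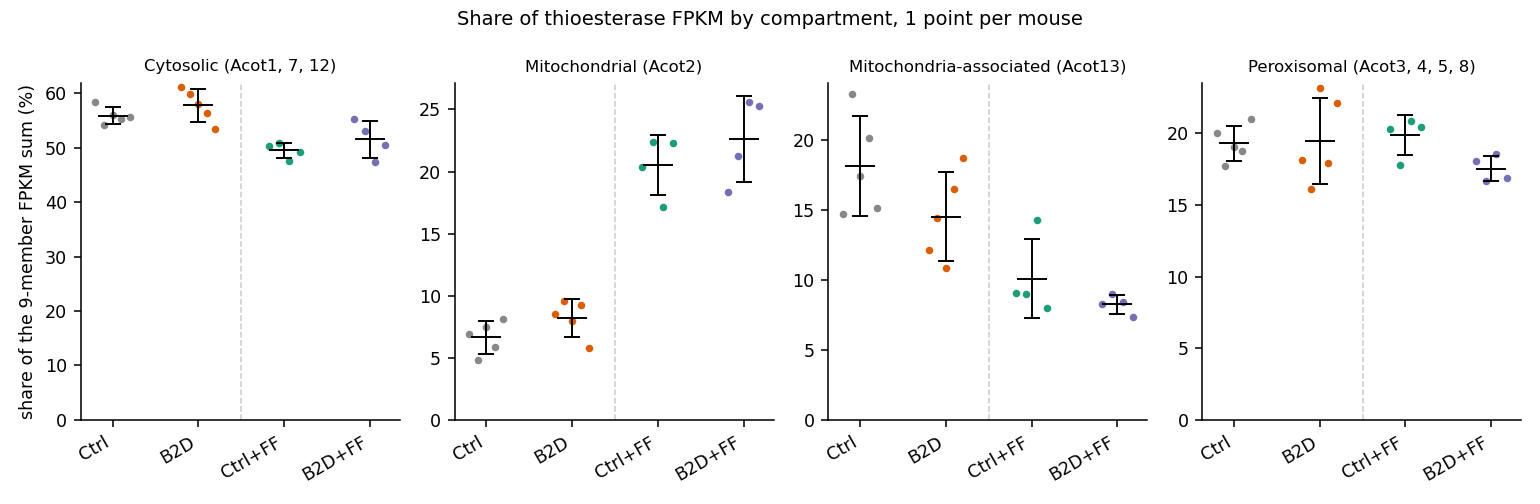
Share of the 9-member FPKM sum (vertical axis, percent, from 0, one scale per panel) held by cytosolic, mitochondrial, mitochondria-associated and peroxisomal members, with 1 point per mouse and the mean ± SD in black. The dashed line parts the 2 tables. Acot2 moves from 6.66% and 8.20% without fenofibrate to 20.5% and 22.6% with it, while the mean peroxisomal share lies between 17.5% and 19.9%.

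Ratios within a mouse were set out for close neighbours in the cluster. The ratio of Acot3 to Acot4, chosen after the values were seen and therefore given with no test, was 1.08, 0.810, 0.758, 0.768 and 0.959 in Ctrl and 1.31, 1.57, 1.35, 1.38 and 1.45 in B2D. With fenofibrate it was 1.12, 0.832, 0.891 and 0.980 in Ctrl+FF and 3.01, 2.04, 1.49 and 1.38 in B2D+FF. In each experiment every deficient mouse lay above every control mouse, and Ctrl and Ctrl+FF covered nearly the same range. Of 28 pairs among the 8 members other than Acot5, the ratio separated the diets for 1 pair without fenofibrate and for 6 with it. All 6 held Acot4, whose own values did not overlap between the diets there, so they add no separate result. Acot3 to Acot4 was the 1 pair of the 28 that did so in both. Acot5 to Acot4, outside this count, also did. It was at most 0.00340 in Ctrl and at least 0.00439 in B2D, on 0 to 2 Acot5 reads per Ctrl library. With fenofibrate it was at most 0.0607 in Ctrl+FF and at least 0.117 in B2D+FF. The share of such pairs over all genes was not computed. The ratio of Acot1 to Acot2 behaved otherwise. It averaged 4.63 ± 0.725 in Ctrl and 3.98 ± 0.637 in B2D, beside 1.95 ± 0.158 in Ctrl+FF and 1.88 ± 0.491 in B2D+FF, with diets overlapping in each experiment. The Acot1 to Acot2 ratio moves with any reads that these copies share.

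**Figure D5:**
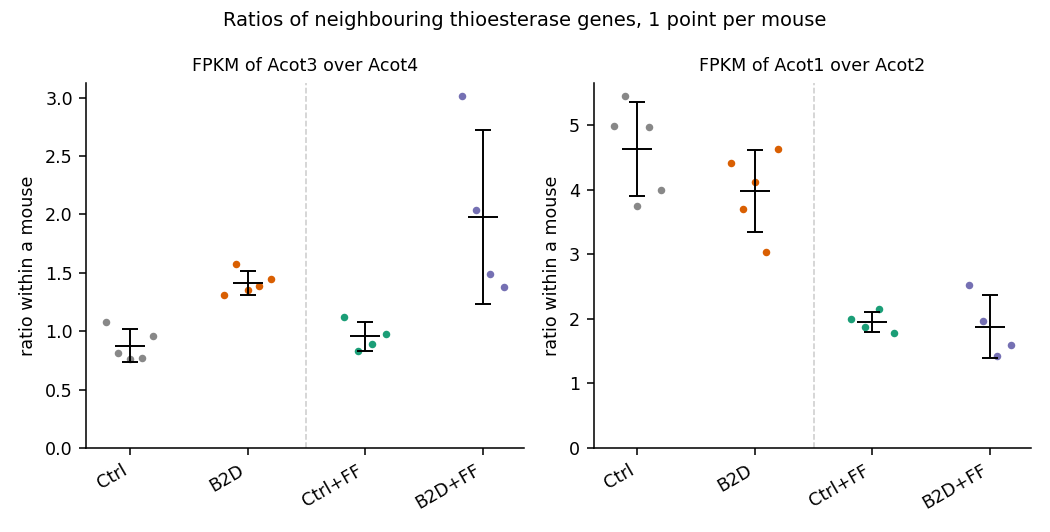
Ratio of FPKM within a mouse (vertical axis, from 0) for Acot3 over Acot4 (left) and Acot1 over Acot2 (right), with 1 point per mouse and the mean ± SD in black. The dashed line parts the 2 tables. Acot3 over Acot4 separates the diets in each experiment (0.875 and 1.41 on average without fenofibrate, 0.956 and 1.98 with it), and Acot1 over Acot2 separates the tables.

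The genes around the thioesterases in acyl-CoA metabolism were read from the same fits. In B2D against Ctrl, 1 of 15 tested acyl-CoA synthetases, 1 of 11 tested genes of coenzyme A synthesis and breakdown and 1 of 17 tested genes of peroxisomal beta-oxidation passed the adjusted threshold, all lower, beside 1.94% of all genes. Acsm1, a mitochondrial medium-chain synthetase, fell from 116 ± 13.9 to 68.9 ± 12.5 FPKM (limma adjusted p = 0.0195). Coasy, which catalyses the last steps of coenzyme A synthesis, fell from 52.9 ± 4.14 to 39.2 ± 2.13 FPKM (adjusted p = 0.0349), and Amacr, the racemase for branched-chain acyl-CoA, from 73.7 ± 8.48 to 51.6 ± 4.01 (adjusted p = 0.0326). None of 6 carnitine genes, 5 other thioesterases or 6 regulators passed.

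In B2D+FF against Ctrl+FF other genes of the same lists passed, all higher, beside 2.24% of all genes: 1 of 15 synthetases, 1 of 11 coenzyme A genes and 1 of 17 peroxisomal genes. Acsl4, a synthetase that prefers arachidonic acid, rose from 16.5 ± 1.47 to 25.7 ± 3.07 FPKM (limma adjusted p = 0.0166). Nudt19, a peroxisomal hydrolase of coenzyme A, rose from 15.1 ± 0.299 to 22.5 ± 2.58 (adjusted p = 0.0166), and Abcd2, a peroxisomal importer of very long-chain acyl-CoA, from 11.6 ± 1.14 to 15.4 ± 1.11 (adjusted p = 0.0485). None of 6 carnitine genes, 6 other thioesterases or 6 regulators passed. Median log2 fold changes of these lists lay between -0.13 and 0.16 in both contrasts, beside -0.0013 and 0.013 over all genes tested. Ppara, which encodes the receptor and was singled out after its values were seen, was at 47.3 FPKM in Ctrl, 46.7 in B2D, 55.3 in Ctrl+FF and 45.2 in B2D+FF.

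Beside fenofibrate, every mouse was higher for 9 of 15 synthetases, 6 of 11 coenzyme A genes, 3 of 6 carnitine genes and 10 of 17 peroxisomal genes on the control diet, and for 7, 3, 3 and 13 of them on the deficient diet. The background was 13.2% and 13.6%. Of the 5 other thioesterases that passed the filter in both tables, 2 were higher in every mouse on the control diet and none on the deficient diet. Among those the filter left out, Acot6 was higher in every mouse on each diet, and Acot10, Acot11 and Them5 were not. Of the 6 regulators, 1 was higher in every mouse on the control diet (Ppara) and a different 1 on the deficient diet (Rxrb). Rxra was lower in every mouse on the deficient diet. Higher values beside fenofibrate were thus also frequent in the synthetase, coenzyme A, carnitine and peroxisomal lists.

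Within groups, members differed in how they varied from mouse to mouse. Deviations of log2(FPKM + 1) from the group means, over all 18 mice, correlated at 0.72 between Acot1 and Acot2, 0.68 between Acot4 and Acot12, 0.63 between Acot3 and Acot4 and 0.62 between Acot8 and Acot12. Acot7 and Acot13 had negative or weak correlations with the cluster members, from -0.28 to 0.058. These are descriptions, since the genes of a mouse are read from the same library and share its scaling. Among 4276 expressed protein-coding genes, those most like a member in these deviations were S100a1 for Acot13 (Pearson r = 0.949), Stx17 for Acot12 (0.925), Bace1 for Acot4 (0.902), Oplah for Acot2 (0.884), Maged1 for Acot1 (0.866), Rhot2 for Acot7 (0.836), Ccs for Acot8 (0.823) and Rrp1 for Acot3 (0.806). Members of the family were left out of these 4276 genes, so the search could not return one.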

How the data were processed

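Liver RNA of 18 mice was sequenced as paired ends from mRNA libraries (NEBNext Ultra). Per the labels and the study's methods, the authors aligned reads to mm10 with STAR, counted them with featureCounts and tested counts with DESeq2. They deposited 1 FPKM table per experiment (RPKM in the methods), with gene lengths and GRCm38 positions, each normalized on its own. How reads shared by close copies were treated is not given in the sources used here. Multiplied by gene length, values were whole multiples of 1 read (tolerance 0.05 reads), which gave the reads behind each value. The labels state no batch.

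For genes with a mean of at least 0.5 FPKM, log2(FPKM + 1) was fitted by limma (version 3.58.1, R 4.3.3; moderated, with a trend), with each table alone for the diet contrasts and Benjamini-Hochberg adjustment at 0.05. Fold changes on this scale understate changes of low genes. The difference between the experiments was a contrast in 1 joint limma fit of all 18 libraries, each side of it within a table. The deposited unit is FPKM, so the main test was on its log scale; DESeq2 was not run, and the recovered reads were tested by limma voom as an alternative. Acot5 without fenofibrate got an exact permutation test (SciPy 1.17.1). Intervals of summed reads cover counting error only. The fits were tested on simulated data. Other settings were a 0.1 pseudocount, a 5 FPKM minimum or no filter, upper-quartile and quantile scaling, limma voom on recovered reads, close copies summed, and each mouse left out. Mice are numbered in accession order. p-values measure the spread between mice. Members, lists and tests were chosen with earlier results of these data known. All 9 members are named, with every listed gene past the threshold and, for each member with at least 5 FPKM in both tables, the genes whose deviations from group means correlated best, of which the first is printed.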

Additional observations from a re-analysis of the deposited data

Results flagged for a closer look

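Among 36 pairs of a member and a group examined, 1 mouse stood apart from its group by Dixon's criterion at 95%, which chance meets in about 1 in 20 groups. It was B2D mouse 5 for Acot2, at 19.9 FPKM, while the other 4 B2D mice lay between 32.99 and 37.0 FPKM. The same mouse was the lowest of its group for Acot1 (92.1 FPKM) and Acot8 (11.1 FPKM). Without it, the log2 fold change of Acot2 in B2D against Ctrl was 0.62 in place of 0.46 (limma adjusted p = 0.0717 in place of 0.232).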

How the results depend on the processing

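Counts of called genes over the whole tables moved most. For B2D against Ctrl (313), no filter gave 67 and upper-quartile scaling 208, and leaving out 1 mouse gave 98 to 332. For B2D+FF against Ctrl+FF (529, 266 higher and 263 lower), no filter gave 272 and leaving out 1 mouse gave 175 to 596, and upper-quartile scaling turned the split to 213 higher and 347 lower. For the difference between the experiments (16), no filter gave 25, the 5 FPKM minimum 6, and leaving out 1 mouse 8 to 44. Among members, summing Acot3 to Acot6 as 1 feature gave 0.25 (Acot4 alone -0.12) in B2D against Ctrl and -0.061 (Acot3 alone 0.31, Acot5 alone 0.77) in B2D+FF against Ctrl+FF. Leaving out 1 mouse turned the sign of values near 0: in B2D+FF against Ctrl+FF, Acot13 ranged from -0.21 to 0.013 and Acot7 from -0.038 to 0.14, and in the difference between the experiments Acot1 ranged from -0.21 to 0.070, Acot12 from -0.070 to 0.15 and Acot13 from -0.058 to 0.17. Quantile scaling gave -0.16 for Acot12 and -0.098 for Acot13 in that difference. The cause was not tested. Acot5 and Acot4 with fenofibrate were the members whose call changed under an alternative. The Acot12 ratio of Ctrl+FF to Ctrl was 1.37 after both tables were scaled to the same upper quartile. No paired analysis was possible because the labels give no number that ties mice across groups. Group sizes of 4 and 5 limit what could be called, and Acot5 without fenofibrate is limited by 0 to 15 reads per library.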
